A study of Homo sapiens with 4 samples.

Results

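The circadian clock genes described here are 10 members, PER1, PER2, PER3, CRY1, CRY2, BMAL1, CLOCK, DBP, TEF and BHLHE40. They were taken by symbol and no measured value entered that rule, but earlier results of these data were known at the choice. All 10 were found among the 61906 genes of the deposited table. RNA was measured in HepG2, an established human hepatocellular carcinoma line of wild-type genotype, either mock-treated or treated with 20 µM pyridostatin (PDS) for 24 h. PDS is a small-molecule ligand of guanine quadruplexes (G4), folds that guanine-rich DNA or RNA can adopt, and the comparison asks how gene expression differs in its presence. Each group held 2 libraries of poly(A)-enriched RNA, numbered as replicates. What separated the replicates, any clock-synchronising step and the hour of harvest are not given in the sources used here, so the p-values speak of the spread among these libraries, which may be technical. In bulk RNA, fewer cells of a kind and less RNA per cell cannot be told apart.

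In mammalian cells the clock is a feedback loop of transcription. The proteins BMAL1 and CLOCK bind E-box sequences and activate the PER and CRY genes, whose proteins then return to the nucleus and repress BMAL1 and CLOCK. Other factors bind ROR elements in the BMAL1 gene or D-box sequences in PER genes, and the loop drives output genes, many of them for liver metabolism. In a culture that has not been synchronised, cells run out of phase with each other, and the measured RNA is an average over many phases.

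Expression is given as TPM, a length-corrected share of all transcripts that sums to the same total in every library. Genes of the mitochondrial genome held 14.5% to 15.3% of TPM in the mock libraries and 36.4% to 36.5% after PDS. Libraries were scaled so that the median tested gene was unchanged (fold changes below are log2 differences of scaled TPM plus 1, PDS minus mock, unless said otherwise). Without this scaling the median tested gene lay at a log2 fold change of -0.55, and with only the nuclear genes rescaled to a common total it lay at -0.20. Reads recovered from TPM summed to 39217670 and 30408397 (mock) and to 15573166 and 19647907 (PDS). These are partial sums that leave out genes whose identifier version did not match the annotation, ALB among them. The members were read with 68 to 10313 reads each. Of 10 hepatocyte markers all were detected, with ALB at 13680 TPM or more. Relative to the median gene 8 of them were higher after PDS and HNF4A was lower (median log2 fold change 0.47), while their summed TPM as deposited went from 53802 and 57037 to 48709 and 47409. In the other marker lists, 8 erythroid markers summed to at most 1.40 TPM in any library and HBG1 was at 0. Of the fibroblast markers only PDGFRB was above 1 TPM (11.6 to 20.2), and of the leukocyte markers PTPRC and CD3E stayed under 0.2 TPM while LYZ reached 7206 TPM and was higher after PDS (log2 fold change 0.84, limma adjusted p = 0.00736).

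The sequences where clock factors can bind are shown first, because they are the elements through which the loop acts. RefSeq promoter windows (GRCh38.p14, 250 bases before to 50 after an annotated start) were found for all 10 members, 15 windows in all since 5 members had more than 1 start. Both strands were searched for the E-box CACGTG, its variant CACGTT, the D-boxes TTATGTAA and TTACGTAA, the cAMP response element TGACGTCA, its shorter form TGACG, which also lies inside the full element, and the ROR element core TAGGTCA. The stretches below are printed 5′ to 3′ on the gene's strand with the element in capitals. For CRY1 the element reads CACGTT on the other strand.
BHLHE40, chr3:4979187-4979257, plus strand: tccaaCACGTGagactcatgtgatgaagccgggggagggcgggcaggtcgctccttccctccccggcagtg
PER1, chr17:8152512-8152597, minus strand: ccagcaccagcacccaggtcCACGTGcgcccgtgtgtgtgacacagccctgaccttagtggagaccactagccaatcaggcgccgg
PER2, chr2:238288742-238288827, minus strand: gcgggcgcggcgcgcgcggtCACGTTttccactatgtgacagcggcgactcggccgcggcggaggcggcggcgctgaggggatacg
PER2, chr2:238288596-238288625, minus strand: ccccgctgcggcTTACGTAAccgccgccgg
PER3, chr1:7784094-7784181, plus strand: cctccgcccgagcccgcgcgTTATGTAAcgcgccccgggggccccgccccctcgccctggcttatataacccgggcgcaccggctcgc
CRY1, chr12:107093573-107093658, minus strand: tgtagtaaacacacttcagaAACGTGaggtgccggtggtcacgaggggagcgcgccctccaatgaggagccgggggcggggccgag
BMAL1, chr11:13277808-13277837, plus strand: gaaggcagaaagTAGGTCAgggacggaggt

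The E-box CACGTG was present in 4 of the 15 windows, those of BHLHE40, PER1 and TEF, against 7.26% of all 35116 promoter windows. The variant CACGTT was present in 4 windows, for CLOCK, CRY1, CRY2 and PER2 (5.34% of all windows). The D-box TTATGTAA was found in 1 window, of PER3 (0.886%), TTACGTAA in 1, of PER2 (0.125%), and the ROR core in 2, of BMAL1 and CRY2 (1.85%). The full cAMP response element was in 0 of the 15 windows (1.85% of all windows), and the shorter form was in 5, for CLOCK, CRY1, CRY2 and PER2 (24.6%). The DBP window held none of these letters. A match is only a run of letters within this window and says nothing about binding.

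A G4 sequence motif, 4 runs of at least 3 guanines with loops of 1 to 7 bases on either strand, is shown for the members at the ends of the range of change, because the ligand studied binds such folds. It is printed on the guanine-rich strand with the guanine runs in capitals. It was present in 10 of the 15 windows and for 7 of 10 members (all but PER2, CRY1 and DBP), against 25.0% of all windows. The member windows held 46.3% to 81.0% guanine and cytosine, and no comparison with windows of like content was made.
BHLHE40, chr3:4979359-4979429, minus strand: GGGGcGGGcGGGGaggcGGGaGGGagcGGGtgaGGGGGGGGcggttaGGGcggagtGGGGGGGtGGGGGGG
BMAL1, chr11:13277736-13277765, plus strand: GGGcGGGGGGccGGGcctGGGccggcGGGG
PER1, chr17:8152408-8152426, plus strand: GGGcGGGcGGGGaggcGGG
BHLHE40 and BMAL1, with the 2 highest fold changes of the members, held the motif, and PER1, with the lowest, held it as well.

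Across the 10 members, BHLHE40 rose after PDS relative to the median gene and the other 9 did not pass the test. The count was thus 1 of 10 higher, where 16.2% of the 14686 tested genes were called higher, and 0 of 10 lower, where 13% were called lower (limma, adjusted p under 0.05). At an unadjusted p under 0.05 there were 3 of 10 members, BHLHE40 and BMAL1 with higher and PER1 with lower values, where 43.4% of tested genes reached it. The median log2 fold change of the members was -0.08, beside 0.00 over all tested genes (-9.25e-05). On scaled TPM both PDS libraries lay above both mock libraries for BHLHE40 and BMAL1, and below them for PER1, PER2, CLOCK and DBP. Those are 2 and 4 of 10 members, with 35.2% and 35.6% of tested genes in the same positions. These shares were near the background or under it, and all 10 members passed the filter of a mean of at least 1 TPM.

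Other treatments of the values gave different counts. By TPM as deposited, 8 of 10 members were called lower and 0 higher, while 71.8% of all tested genes were called lower and 2.58% higher. The 8 were all members but BMAL1 and BHLHE40. With limma voom on the recovered reads, which weights each value by the precision expected at its read number, BHLHE40 and BMAL1 were called higher and PER1 lower. Of the 13967 genes tested with voom, 20.1% were called higher and 19% lower. The sign of each member but BMAL1 and TEF was the same under all 3 treatments. By TPM as deposited BMAL1 turned to -0.0496 without passing, and TEF turned to -0.56 and passed. The median tested gene lay at -0.55 there.

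**Figure D1:**
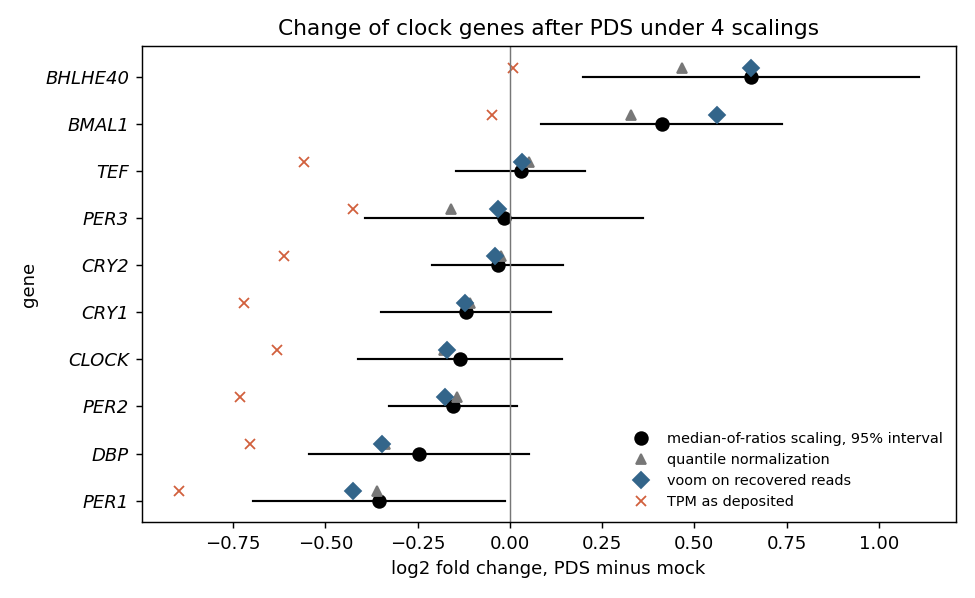
Log2 fold change (PDS minus mock, x axis) of each clock gene (y axis), with black points and bars for the scaled TPM and its 95% interval, triangles for quantile normalization, diamonds for voom on recovered reads and crosses for TPM as deposited. BHLHE40 (0.65) and BMAL1 (0.41) lie to the right under the first 3 treatments and near 0 by TPM as deposited, and PER1 lies lowest under each of the 4.

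BMAL1 (chr11:13276652-13387266, plus strand, all positions in GRCh38 from GENCODE 44) and CLOCK (chr4:55427903-55546909, minus strand) form the activating pair of the loop. BMAL1 was at 2.75 and 2.35 TPM in the mock libraries and at 2.49 and 2.35 TPM after PDS. The deposited values of the groups overlapped. On scaled TPM the mock libraries held 2.23 and 1.84 and the PDS libraries 3.09 and 2.97, with no overlap. The log2 fold change was 0.41 (SE 0.127, 95% interval 0.08 to 0.74), which did not pass (limma adjusted p = 0.0679), and 14.5% of tested genes had a larger one. With voom on the 107 to 228 reads per library it was 0.56 (adjusted p = 0.00813). A pseudocount of 1 shrinks the value of a gene at this level, and with 0.1 it was also 0.56, still short of the threshold (adjusted p = 0.065).

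CLOCK, the partner of BMAL1, went from 4.03 and 4.73 TPM to 2.46 and 2.47 TPM. The deposited groups did not overlap, and neither did the scaled ones, where the closest libraries were at 3.27 (mock 1) and 3.12 (PDS 2). The log2 fold change of -0.14 (SE 0.108) did not pass (limma adjusted p = 0.385), and ran from -0.0674 (without mock replicate 2) to -0.21 (without mock replicate 1). The ratio of CLOCK to BMAL1 within a library is free of any scaling between libraries. It was 1.47 and 2.01 in the mock libraries and 0.989 and 1.05 in the PDS libraries. By TPM, CLOCK RNA thus exceeded BMAL1 RNA in both mock libraries and was nearly equal to it after PDS, without overlap between the groups. TPM divides by exon length, and by reads CLOCK stayed above BMAL1 in both PDS libraries (176 against 107 and 220 against 126).

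PER1 (chr17:8140472-8156506, minus strand), PER2 (chr2:238244044-238290102, minus strand) and PER3 (chr1:7784291-7845177, plus strand) encode the period proteins, which carry the repressive signal together with cryptochromes. PER1 is also an early responder to hormones and other stimuli. It was at 8.48 and 6.97 TPM in the mock libraries and at 3.41 and 3.94 TPM after PDS. Both PDS libraries were below both mock libraries, on scaled TPM too (6.88 and 5.48 against 4.23 and 4.97), but the mock libraries were far apart from each other. The log2 fold change was -0.35 (SE 0.133, 95% interval -0.70 to -0.01) with a limma adjusted p of 0.107, and 12.9% of tested genes had a lower one. Voom placed it past the threshold (log2 fold change -0.42, adjusted p = 0.0215), as did rescaling of the nuclear genes alone (-0.57, limma adjusted p = 0.0218). Without single libraries the fold change ran from -0.21 (without mock replicate 1, adjusted p = 0.379) to -0.49 (without mock replicate 2), none past the threshold.

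PER2 went from 10.9 and 11.2 TPM to 6.30 and 6.24 TPM. On scaled TPM the difference was small, with 8.86 and 8.79 against 7.81 and 7.87, and the groups did not overlap. The log2 fold change was -0.15 (SE 0.0674), short of the threshold (limma adjusted p = 0.15). PER3, the lowest of the members in both groups, was at 2.36 and 2.03 TPM in the mock libraries and at 1.35 and 1.40 TPM after PDS. Its scaled values overlapped, and the log2 fold change was -0.02 with a 95% interval from -0.39 to 0.36. A change of any size inside that interval would be compatible with these libraries. PER3 had 68 and 88 reads in the PDS libraries, and whether depth set the width of the interval was not tested.

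Of the 3 period genes PER1 had the lowest fold change, although the differences between them were not tested. The ratio of BMAL1 to the summed TPM of the 3 period genes was 0.126 and 0.116 in the mock libraries and 0.225 and 0.203 after PDS. The log2 ratio was higher after PDS by 0.82 (-3.05 ± 0.0834 against -2.22 ± 0.105, SD, n = 2), without overlap. All ratios between members are given as a description, with no test. Separation of 2 libraries from 2 was common among single genes. On scaled TPM, 35.2% of tested genes had both PDS libraries above both mock libraries and 35.6% had them below. No such share was computed for ratios.

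**Figure D2:**
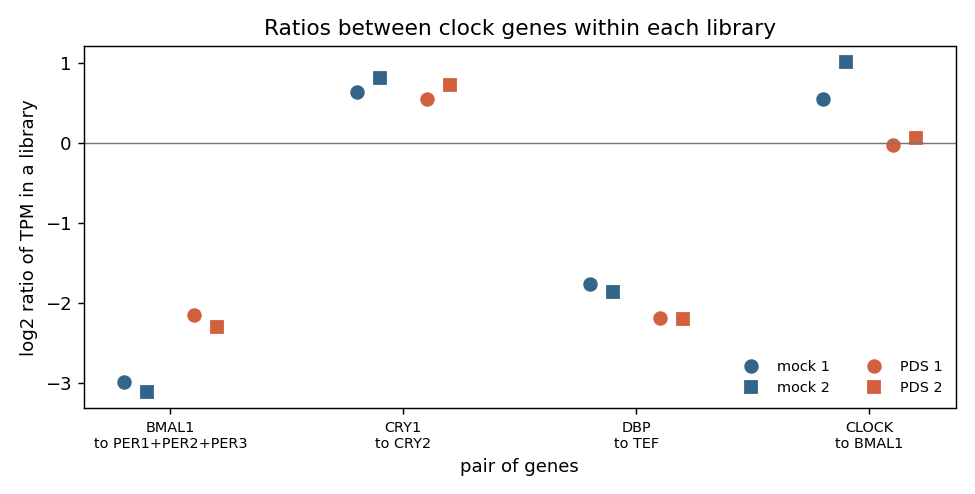
Log2 ratio of TPM between clock genes within a library (y axis) for 4 pairs (x axis), with blue points for mock and orange points for PDS libraries. BMAL1 against the period genes is higher in both PDS libraries, CLOCK to BMAL1 and DBP to TEF are lower, and CRY1 to CRY2 overlaps between the groups.

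CRY1 (chr12:106991364-107093549, minus strand) and CRY2 (chr11:45847118-45883248, plus strand) encode the cryptochromes, the strongest repressors of BMAL1 and CLOCK. CRY1 was at 17.0 and 18.9 TPM in the mock libraries and at 9.86 and 11.1 TPM after PDS. CRY2 was at 10.9 and 10.8 TPM and then at 6.74 and 6.73 TPM. Both genes were lower by TPM as deposited with no overlap, and for both the scaled values overlapped. The log2 fold changes were -0.12 (95% interval -0.35 to 0.11) and -0.03 (-0.21 to 0.15), neither past the threshold (limma adjusted p = 0.364 and 0.747). Without PDS replicate 1 that of CRY1 was -0.0230 and without PDS replicate 2 it was -0.21. The ratio of CRY1 to CRY2 within a library was 1.56 and 1.76 in the mock libraries and 1.46 and 1.65 after PDS, and overlapped between the groups.

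BHLHE40 (chr3:4979437-4985323, plus strand) encodes a repressor that competes for E-boxes and is also induced by low oxygen and growth signals. It was by far the most abundant member, at 245 and 187 TPM in the mock libraries and at 194 and 238 TPM after PDS. These values overlapped, with nearly the same mean in both groups (216 ± 41.3 and 216 ± 30.9 TPM, SD, n = 2). On scaled TPM the mock libraries held 199 and 147 and the PDS libraries 241 and 300.2. The groups were then apart, with mock 1 nearest to the PDS libraries.

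The log2 fold change of BHLHE40 was 0.65 (SE 0.177, 95% interval 0.20 to 1.11), a 1.57-fold rise relative to the median gene. It passed the threshold by a narrow margin (limma adjusted p = 0.0486), and 6.85% of tested genes had a larger fold change. The hepatocyte markers, with their median of 0.47, moved the same way, and their part in this result was not tested. The call was lost without any 1 of the 4 libraries, with fold changes from 0.43 to 0.87. It was lost with the nuclear genes alone rescaled (limma adjusted p = 0.0816) and under quantile normalization (limma adjusted p = 0.0871), and with voom the adjusted p was 0.000312. Its antisense neighbour BHLHE40-AS1 shared 451 of its 3516 exon bases and stayed at or below 0.28 TPM in every library.

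DBP (chr19:48630030-48637379, minus strand) and TEF (chr22:41367333-41399326, plus strand) encode PAR-bZIP activators that bind D-boxes and pass the rhythm on to liver genes. DBP, a direct E-box target in mouse liver, went from 3.44 and 3.40 TPM to 1.69 and 1.74 TPM. Both PDS libraries were lower, on scaled TPM as well (2.79 and 2.67 against 2.10 and 2.19). The log2 fold change was -0.25 (SE 0.116) and did not pass (limma adjusted p = 0.171), or -0.35 with voom (adjusted p = 0.0923). TEF was at 11.6 and 12.3 TPM and at 7.69 and 7.93 TPM after PDS, and its scaled values overlapped. Its log2 fold change was 0.03 (95% interval -0.15 to 0.20). The ratio of DBP to TEF was 0.296 and 0.276 in the mock libraries and 0.220 and 0.219 in the PDS libraries, lower after PDS without overlap.

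The DBP value rests on a wide definition of its exons. In GENCODE 44 the gene spans 7350 bases and 6485 of them are exonic in at least 1 transcript, so reads from sequence that other transcripts treat as intron are counted. A further 661 of its exon bases are shared with SPHK2 on the opposite strand, which was at 6.81 and 7.84 TPM in the mock libraries and at 5.13 and 4.07 TPM after PDS. With a library kit for which no strand setting was stated, reads there cannot be assigned to one or the other. CLOCK shared 76 exon bases with TMEM165 (32.8 to 36.6 TPM), and PER3 shared 868 with UTS2, which was listed at 0. CRY2 and TEF shared none.

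The order of the levels was nearly the same in both groups. From high to low in the mock libraries it was BHLHE40, CRY1, TEF, PER2, CRY2, PER1, CLOCK, DBP, BMAL1 and PER3, and only BMAL1 and PER3 overlapped as neighbours. After PDS, CRY2 stood above PER2 and BMAL1 above DBP, and only CLOCK and BMAL1 overlapped as neighbours. These levels are per length, as TPM divides by exon length, and the place of DBP depends on its wide exon definition.

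**Figure D3:**
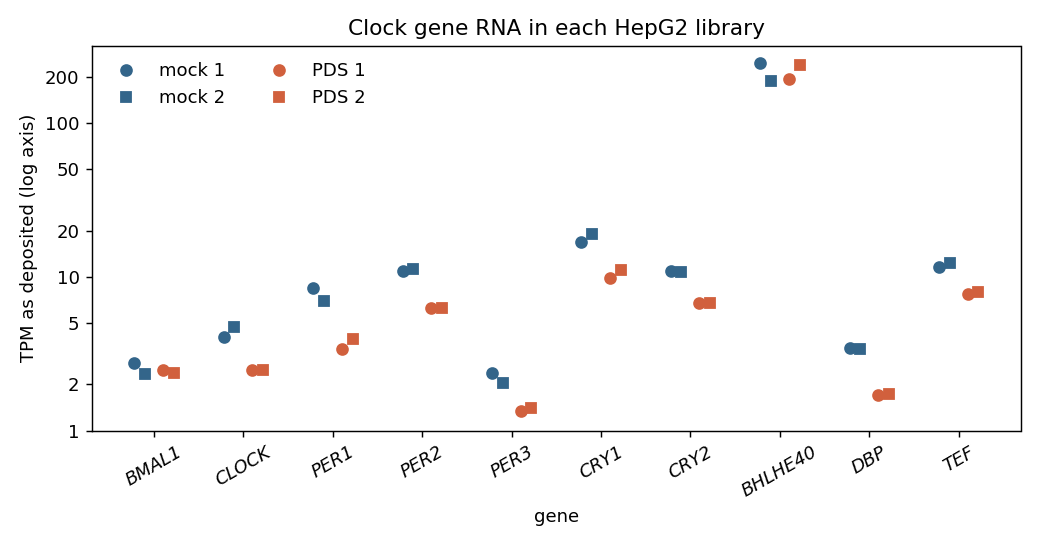
TPM as deposited (y axis, log scale) of the 10 clock genes (x axis) in each library, with blue for mock, orange for PDS, circles for replicate 1 and squares for replicate 2. BHLHE40 stands at 187 to 245 TPM, all other members below 20 TPM, and the PDS points lie below the mock points for each gene but BMAL1 and BHLHE40.

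Among the members, the mock libraries differed most for BHLHE40 and PER1. Mock 1 exceeded mock 2 by 0.44 on the log2 scale of scaled TPM for BHLHE40 and by 0.28 for PER1, where the median gap over all tested genes was 0.0926 in size. A wider gap was found for 5.62% and 11.8% of tested genes, respectively. PDS 1 lay below PDS 2 for the same members, by 0.32 and 0.19. The gap between mock libraries was 0.01 for PER2, 0.06 for CRY2 and 0.05 for DBP.

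Genes around the core loop were described by lists. Of 10 other transcription factors of the clock, 7 were tested and 0 passed in either direction with limma (median log2 fold change -0.000155), while NR1D2 and HLF had an unadjusted p under 0.05 (43.4% of all tested genes did). The members of this list furthest from 0 were BMAL2 and NR1D2. BMAL2, a paralogue of BMAL1, was at 8.10 and 9.58 TPM in the mock libraries and at 5.00 and 3.98 TPM after PDS (log2 fold change -0.29, limma adjusted p = 0.142). NR1D2, a repressor at ROR elements, went from 9.32 and 9.50 TPM to 4.74 and 5.05 TPM (log2 fold change -0.26, limma adjusted p = 0.0659). Voom called both lower (adjusted p = 0.0324 and 0.0397).

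Of 12 kinases, ligases and other regulators of period and cryptochrome protein, 12 were tested, 1 was higher and 5 were lower (median -0.16, beside 16.2% of all tested genes higher and 13% lower). CSNK1E, a casein kinase that marks period proteins for degradation, went from 30.4 and 28.0 TPM to 26.7 and 26.0 TPM. It was higher relative to the median gene (log2 fold change 0.48, limma adjusted p = 0.0139), while by TPM as deposited it lay at -0.14 and did not pass. TIMELESS, better known in mammals for its part in DNA replication than in the clock, fell from 40.4 and 41.1 to 14.6 and 15.5 TPM (log2 fold change -0.76, limma adjusted p = 0.00582). The deubiquitinases USP7 and USP2 fell by 0.45 and 0.42 on the log2 scale (limma adjusted p = 0.0076 and 0.0303). Their direction, as that of TIMELESS, was the same by TPM as deposited, under quantile normalization, with nuclear genes rescaled and with voom.

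Of 11 clock-controlled output genes, 7 were tested, 1 was higher and 1 was lower (median 0.20), shares near the 16.2% and 13% of all tested genes. ALAS1, the rate-limiting enzyme of heme synthesis in liver, had a log2 fold change of 0.50 (limma adjusted p = 0.0147) that turned to -0.14 by TPM as deposited without passing. PPARA, a nuclear receptor of fatty acid oxidation, fell from 13.0 and 15.5 to 5.998 and 5.78 TPM (log2 fold change -0.56, limma adjusted p = 0.0147). CYP7A1, the rate-limiting enzyme of bile acid synthesis, and CYP2A6, a drug-metabolising enzyme, did not reach 1 TPM in any library and were not tested. Without mock replicate 1 or mock replicate 2, 0 genes of the 3 lists were called, and without either PDS library 1 was higher and 2 were lower.

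**Figure D4:**
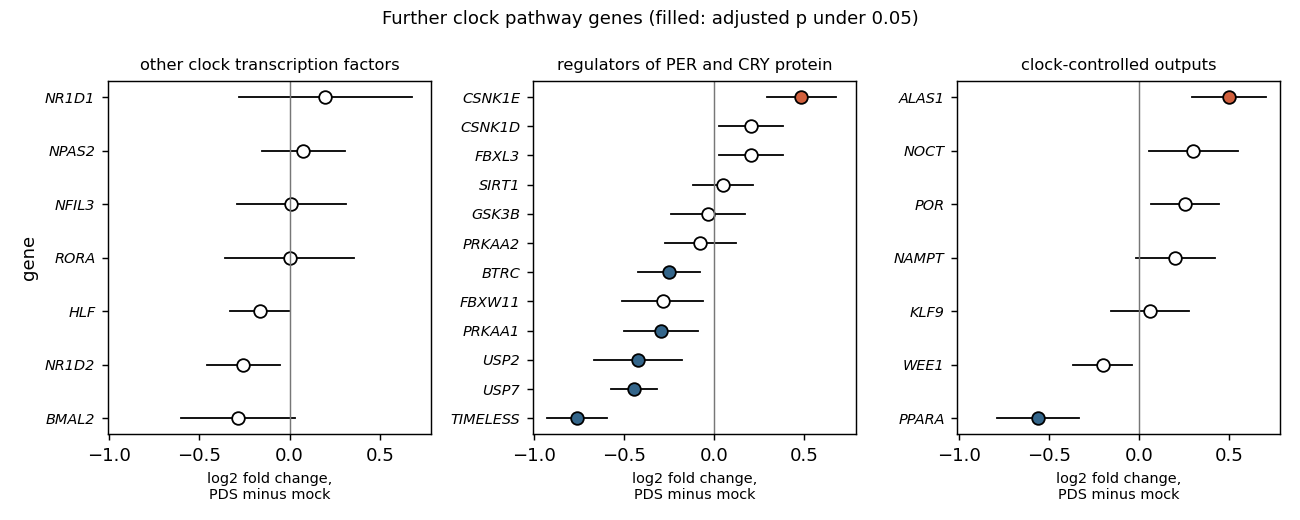
Log2 fold change (PDS minus mock, x axis) with 95% intervals for the tested genes of 3 lists around the core loop (y axis), with filled points for genes past an adjusted p of 0.05. TIMELESS (-0.76) and ALAS1 (0.50) lie at the ends, and all 7 other transcription factors of the clock are open points.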

How the data were processed

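RNA was measured in 2 libraries each of mock-treated HepG2 cells and of cells given 20 µM PDS for 24 h. Per the labels, STAR (2.7.0), GRCh38, featureCounts (2.0.3) and DESeq2 (1.36.0) were used by the authors. No source used here gives the annotation release, strand setting or TPM formula. TPM values, a length-corrected signal, were deposited for 61906 genes. Also left out were 2 repeated identifiers at 0, 2 rows of totals and the authors' group averages.

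Members were matched by GENCODE 44 symbols (59984 identifiers, 96.9%, matched with version). Reads were recovered from TPM and exon length: in each library at least 99.89% of values under 1000 reads lay within 0.05 of a whole number. For PER2, whose identifier version differed, a length of 6872 bases made all 4 values whole. Libraries were divided by median-of-ratios factors (1.23, 1.27, 0.806 and 0.793) from genes averaging 1 TPM or more. These 14686 genes entered limma (3.58.1, under R 4.3.3) as log2 of scaled TPM plus a pseudocount of 1, which understates changes of low genes, with a variance trend and two-sided Benjamini-Hochberg adjusted p under 0.05. The fit was tested on simulated data, and 15 alternatives were run.

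Named genes were all members, up to 4 called genes of each list by size of change (2 where none was called), and genes sharing exons with members. HLF, CYP7A1 and CYP2A6, and ALB, HNF4A, PDGFRB, LYZ, PTPRC and CD3E of the marker lists, were named after their values were seen. Some genes of the lists are not reported here, and the lists' counts leave them out. Members and lists were chosen with earlier results of these data known. Promoters came from RefSeq (GRCh38.p14).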

Additional observations from a re-analysis of the deposited data

How the results depend on the processing

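The members called higher (1) and lower (0) became 0 and 8 by TPM as deposited, 0 and 4 with nuclear genes rescaled and 2 and 1 with voom. They were 0 and 0 under quantile normalization, with no filter, without a variance trend, with robust moderation, with the replicate block and without any single library (limma, with 0 to 4 members at an unadjusted p under 0.05). Of all tested genes, 2377 were higher and 1906 lower. The counts were 379 and 10538 by TPM as deposited, 1139 and 4893 with nuclear genes rescaled, and 799 and 438 with no filter. Leaving out 1 library gave 0 to 1303 higher and 0 to 856 lower, with 164 and 14 without mock replicate 1. Without mock replicate 2 limma called 0, while 4173 genes had an unadjusted p under 0.05. Of the pathway list genes, 2 were higher and 6 lower. These became 0 and 23 by TPM as deposited, 2 and 11 with nuclear genes rescaled, 0 and 2 with no filter, 4 and 7 among genes averaging 5 TPM or more, and 4 and 10 with voom, and leaving out 1 library gave 0 to 1 higher and 0 to 2 lower. Same-numbered libraries did not deviate together over the tested genes (r = -0.0269, across genes, which are not independent replicates). With 1 deviation per group, this cannot tell whether they shared a batch. Replicate 1 had more genes above 0 TPM in both groups (41442 against 36880 in mock, 39176 against 35220 after PDS), and the reason was not tested. The replicate block gave 1679 higher and 1138 lower genes, 2 and 3 pathway list genes, and an adjusted p of 0.089 for BHLHE40 (limma). Over its 15 alternatives that adjusted p ran from 0.000312 to 0.963 and passed in 4. Of 146 fold changes of single members, 116 kept direction and side of the threshold, 13 passed it anew, 11 lost it and 6 turned sign. TEF turned to -0.56 by TPM as deposited and to -0.18 with nuclear genes rescaled, and ran from -0.00412 (without PDS replicate 2) to 0.0630 without single libraries. BMAL1 turned to -0.0496 by TPM as deposited. PER3 ran from -0.10 (-0.101) to 0.0645 without single libraries, turning without mock replicate 1 and without PDS replicate 1 (0.0111). Apart from what each alternative leaves out or rescales, the cause was not tested. PER3 and DBP, with 68 reads in PDS replicate 1, were measured least precisely by counting.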
